A study of Mus musculus with 13 samples.

Results

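Nwd2, Lrrc55, Il18, Calb2, Nfam1, Tspan18 and Syt15 are 7 transcripts named as markers of the medial habenula, or as strongly enriched on the ribosomes of its cholinergic neurons, that encode neither a transmitter enzyme or receptor, nor a pore-forming channel, nor a transcription factor. They are 7 of the 22682 gene symbols counted in every library, and they were chosen by name as habenula markers and by their measured ratio of wild-type immunopurified (IP) RNA to input. The libraries came from medial habenula of adult mice carrying Chat-TRAP DW167, a transgene that tags ribosomes with GFP in cholinergic cells. There were 6 IP libraries from mice wild type at Gpr151, 6 IP libraries from Gpr151-KO mice with the same transgene, and 1 input library, the unpurified homogenate of wild-type Chat-TRAP mice. Each library pooled 4 mice, or 3 mice for libraries 852 and 855, so a replicate is a pool of animals and no single mouse was measured. The IP reports ribosome-bound mRNA of cells in which the transgene is active, and fewer such cells cannot be told apart from less mRNA per cell.

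The medial habenula is a small epithalamic nucleus that projects to the interpeduncular nucleus and releases both glutamate and acetylcholine. It is one of the brain's richest sites of nicotinic acetylcholine receptors, and its pathway is known for its part in nicotine aversion and withdrawal. The 7 proteins do unlike things. Lrrc55 is an auxiliary gamma subunit of the BK calcium- and voltage-activated potassium channel, and Calb2 (calretinin) is a cytosolic calcium buffer. Tspan18 is a tetraspanin that binds the calcium channel Orai1, and Syt15 is a member of the synaptotagmin family of C2-domain proteins. Nfam1 is a membrane receptor of immune cells whose ITAM motif activates NFAT, Il18 is a cytokine of the interleukin-1 family, and Nwd2 is a little-studied protein with a NACHT domain and WD repeats.

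The genes lie on 6 chromosomes (GENCODE M21 on GRCm38, the assembly that mm10 names). Nwd2 (ENSMUSG00000090061.9) is on the plus strand at chr5:63649102-63810546, and Lrrc55 (ENSMUSG00000075224.10) on the minus strand at chr2:85162334-85197197. Il18 (ENSMUSG00000039217.13) is on the plus strand at chr9:50554827-50581840, and Calb2 (ENSMUSG00000003657.9) on the minus strand at chr8:110137502-110168210. Nfam1 (ENSMUSG00000058099.16) is on the minus strand at chr15:82992973-83033306. Tspan18 (ENSMUSG00000027217.13) is on the minus strand at chr2:93201760-93334505, and Syt15 (ENSMUSG00000041479.14) on the plus strand at chr14:34219595-34230420. Their merged exons span 1031 bases in Il18, 1743 in Calb2, 5164 in Syt15, 6474 in Lrrc55, 7970 in Nfam1, 8175 in Tspan18 and 10428 in Nwd2.

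RefSeq (GRCm38.p6) gave a transcription start for 5 of the 7 genes, with 7 starts in all because Nfam1 has 3. The 250 bases before the start are printed for 3 of them, to set the 2 most abundant transcripts, Nwd2 and Lrrc55, beside Il18, whose level on the ribosomes was the lowest. RefSeq and GENCODE do not place every start alike. The RefSeq start of Lrrc55 is 85198750 against a GENCODE gene end of 85197197, and that of Il18 is 50554700 against a GENCODE start of 50554827. The windows are chr5:63648853-63649102 (plus strand) for Nwd2, chr2:85198751-85199000 (minus strand) for Lrrc55 and chr9:50554450-50554699 (plus strand) for Il18. Bco2 and Tex12, genes on the opposite strand, each overlap the Il18 gene with 0 exonic bases shared. Their exons were not compared with the Il18 window. Each window is written 5′ to 3′ on the strand of the gene, and capitals mark matches, on either strand, to the motifs described next.
Nwd2: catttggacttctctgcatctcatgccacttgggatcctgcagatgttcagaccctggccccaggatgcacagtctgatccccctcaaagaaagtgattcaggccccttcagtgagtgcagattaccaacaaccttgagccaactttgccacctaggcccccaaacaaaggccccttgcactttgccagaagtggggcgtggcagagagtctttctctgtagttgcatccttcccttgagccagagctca
Lrrc55: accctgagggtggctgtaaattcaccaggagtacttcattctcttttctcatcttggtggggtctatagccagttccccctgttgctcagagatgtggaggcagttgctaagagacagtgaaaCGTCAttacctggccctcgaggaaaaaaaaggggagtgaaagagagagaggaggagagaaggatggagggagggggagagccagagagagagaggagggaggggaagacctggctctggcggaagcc
Il18: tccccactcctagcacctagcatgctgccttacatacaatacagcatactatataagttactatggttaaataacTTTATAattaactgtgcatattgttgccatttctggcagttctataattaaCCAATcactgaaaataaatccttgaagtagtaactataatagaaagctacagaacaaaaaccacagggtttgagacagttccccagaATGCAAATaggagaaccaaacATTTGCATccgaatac

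The motifs searched were the octamer ATGCAAAT, the cyclic AMP response half-site CGTCA, the nuclear receptor element AAAGGTCA, the CCAAT box CCAAT, the TATA box TATAAA and the GC box GGGCGG, each on both strands. The Il18 window held 2 octamers in opposite orientation, 16 and 37 bases before the start, and 1.60% of the 32851 RefSeq promoters held an octamer in a window of the same length. It also held 1 CCAAT box (33.9% of promoters) and 1 TATA box (12.4%), the latter 175 bases before the start. The Lrrc55 window held 1 CGTCA (17.8% of promoters), and the Nwd2 window held none of the 6 motifs. The G and C content was 35.6% in Il18, 53.6% in Nwd2 and 54.0% in Lrrc55, against a median of 52.4% over all promoters (quartiles 45.2% and 61.2%). Of the starts not printed, Syt15 held 1 GGGCGG (32.7% of promoters) at a G and C content of 70.0%, and 1 of the 3 Nfam1 starts held a TATAAA and a GGGCGG. These are matches of letters and say nothing of binding.

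Depth was 28375912 to 64388596 gene counts per IP library and 54701790 in the input. Levels are given as CPM, counts scaled to a common total over the shared symbols. In an IP library, 3 counts, the limit that a count of 0 allows, came to between 0.0502 and 0.121 CPM, for counting error alone. The IP libraries fell into 3 sets by number, 682 with 683, 852 with 855, and 8 later ones, each with both genotypes in equal number. The earlier and later tables list different gene symbols, so set and annotation cannot be told apart. Gpr151 stood at 479 ± 95.6 CPM in wild-type IP against 155 ± 42.3 CPM in knockout IP (SD over 6 libraries), with every knockout library below every wild-type library (edgeR log2 fold change -1.63, adjusted p = 0.00592). Of 14 habenula marker genes with at least 5 CPM, 13 had at least 2 times the input level in all 6 wild-type IP libraries, and the exception was the glutamate transporter gene Slc17a6.

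In wild-type IP, 5 of the 7 transcripts were far above input and 2 were not. Nfam1 had a median log2 ratio of IP to input of 4.00 (pseudocount of 1 CPM on both sides), Syt15 3.96, Tspan18 3.73, Nwd2 3.28 and Lrrc55 3.19. Calb2 had -0.28 and Il18 -0.80, so the data go against strong enrichment for those 2. Since this contrast chose the members and there was 1 input library, the values are a description without a test. The name of the input's table mentions saccharin with saline, those of the IP tables saline (682 and 683: neither), and the labels give no treatment, so a treatment difference and the step from input to IP cannot be told apart. All 5 enriched transcripts were at least 2-fold above input in each of the 6 wild-type IP libraries, which 538 of 11434 genes with at least 5 CPM met (4.71%) and 1274 met in the other direction (11.1%). When TMM scaling over all 13 libraries was used in place of CPM, the median log2 ratio of all genes moved from -0.07 to 0.16 and the split was 703 higher to 917 lower, and the same number of members, 5, met the rule.

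Nfam1 stood at 111, 220 and 330 CPM (lowest, median and highest of 6 wild-type IP libraries) against 12.8 CPM in the input. Its position was 31st of 11434 genes in median ratio, and Syt15, at 222, 274 and 299.9 CPM against 16.7 CPM, was 33rd. Tspan18 was at 529, 639 and 749.5 CPM against 47.2 CPM, the 41st position. In all 3 genes even the lowest IP library was several times the input.

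Nwd2 and Lrrc55 had the highest counts of the 7. Nwd2 was at 1637, 2840 and 2976 CPM in wild-type IP against 291 CPM in the input (69th of 11434), and Lrrc55 at 1839, 2066 and 2995 CPM against 225 CPM (75th). Their own input levels were also the highest of the 7, so they ranked below Nfam1 and Syt15 in ratio while exceeding them in counts. In Nwd2 the lowest value came from 1 library, 682, and the other 5 lay between 2544 and 2976 CPM.

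Calb2 lay at 113, 174 and 229 CPM in wild-type IP and at 209 CPM in the input (95% exact binomial interval 204 to 213, counting error only). Only 1 of 6 wild-type IP libraries was above the input. Il18 lay at 4.32, 5.12 and 5.92 CPM in wild-type IP and at 9.64 CPM in the input (8.74 to 10.6). All 6 wild-type IP libraries were below the input. Il18 rested on 138 to 305 counts per wild-type IP library and 425 counts in the input, so it was detected but sparse. Its rank was 8834 of 11434 and that of Calb2 6856 of 11434.

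**Figure D1:**
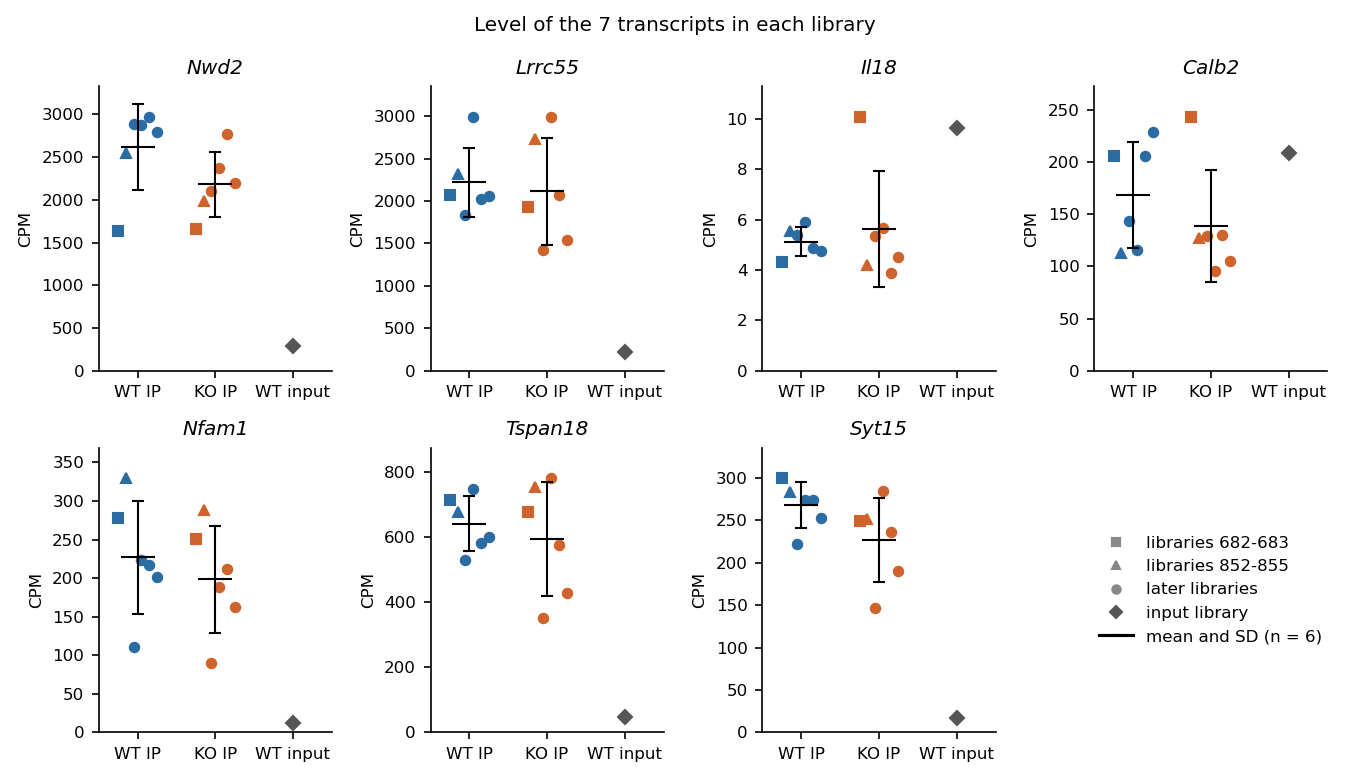
Level of each transcript in CPM (linear axes from 0, scaled per gene) in 6 wild-type IP, 6 knockout IP and 1 input library. Points are libraries, their shape gives the library set, and bars are mean and SD. The IP libraries of Nwd2, Lrrc55, Nfam1, Tspan18 and Syt15 all lie above the input, while those of Il18 and Calb2 lie around or below it.

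Per kilobase of exon, the order of the levels changed. Lrrc55 had 343 ± 63.4 CPM per kb and Nwd2 251 ± 48.3 CPM per kb in wild-type IP (SD, n = 6), the 55th and 94th of 19657 genes. Their libraries overlapped only narrowly, the lowest of Lrrc55 being 284 and the highest of Nwd2 285 CPM per kb. Calb2 came next at 96.7 ± 29.1 CPM per kb (357th), since its exons are short. Tspan18, at 78.5 ± 10.4 CPM per kb, lay within the range of Calb2 and did not differ from it beyond the spread.

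Syt15 followed at 51.8 ± 5.25 CPM per kb, its highest library (58.1) under the lowest of Tspan18 (64.7). Nfam1 had 28.5 ± 9.26 CPM per kb, with its highest library (41.4) just under the lowest of Syt15 (43.0). Il18 was last at 4.97 ± 0.572 CPM per kb, 6492nd of 19657. Calb2 was thus among the more abundant ribosome-bound transcripts of the 7 although it was not enriched over input, where its level was 120 CPM per kb (237th).

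In the knockout, the ratio to the same input library followed the same order of groups. The rule of size was met by the same 5 of 7 transcripts (389 of 11399 genes, 3.41%, and 510 with TMM scaling over 13 libraries). Median log2 ratios were 3.86 for Nfam1, 3.78 for Syt15, 3.70 for Tspan18, 3.15 for Lrrc55 and 2.88 for Nwd2. For Calb2 and Il18 they were -0.70 and -0.84, and in each of these genes 1 of 6 knockout libraries was above the input, library 683 in both. The wild-type and knockout ratios share the input and are therefore not independent.

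**Figure D2:**
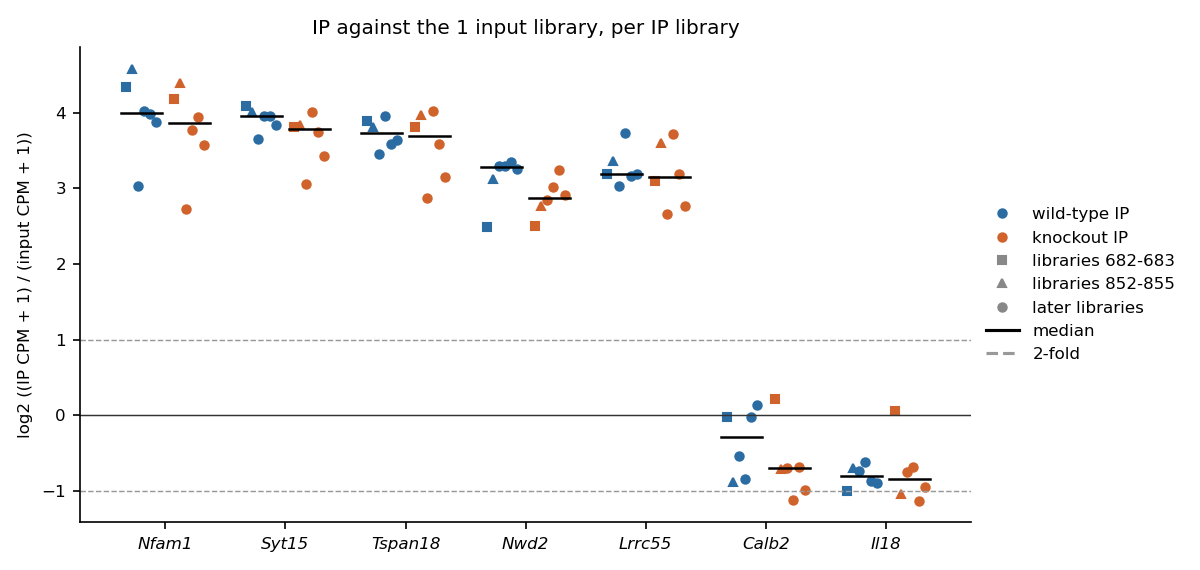
Log2 ratio of IP to input, with 1 CPM added to both, for each IP library, genes ordered by the wild-type median. Points are libraries, black bars are medians of 6 and dashed lines mark 2-fold. Nfam1, Syt15, Tspan18, Nwd2 and Lrrc55 lie above the upper dashed line in all 12 libraries, Calb2 and Il18 in none.

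None of the 7 transcripts differed between knockout and wild type after adjustment. The count was 0 of 7 at an adjusted p under 0.05, against 2 of 14317 genes (0.014%; edgeR quasi-likelihood test with the library set as a term), namely Gpr151 and Oxt. All 7 members had an adjusted p of 0.999. At an unadjusted p under 0.05 there was 1 of 7, Nwd2, against 438 of 14317 genes (3.06%), and DESeq2 called 12 genes (0.0613%) and 0 members. In 0 of 7 did the 6 knockout libraries lie wholly below or wholly above the 6 wild-type ones, which held for 0.0787% and 0.0175% of genes with at least 5 CPM. The wild-type IP libraries entered both the choice of the members and this comparison.

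Nwd2 had the narrowest interval. Wild-type IP had 2620 ± 504 CPM and knockout IP 2181 ± 377 CPM (mean and SD of 6 libraries), the knockout libraries lying at 1656, 2148 and 2775 CPM (lowest, median and highest). The log2 fold change was -0.23 ± 0.10 (SE; 95% interval -0.45 to -0.02; edgeR unadjusted p = 0.0346). Over all sets the groups overlapped, and 0 of 6 knockout libraries lay below all wild-type libraries. Within the later set they did not: the 4 knockout libraries (2100 to 2775 CPM) were all below the 4 wild-type ones (2798 to 2976 CPM), as was true of 1 of 7 members and of 1.01% of genes with at least 5 CPM. The differences within sets were 0.02 for library 683 over 682, -0.36 for 855 over 852 and -0.30 for the later libraries by their means.

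Lrrc55, the BK channel subunit, had 2218 ± 411 CPM in the wild-type and 2113 ± 629 CPM in the knockout libraries. The log2 fold change was -0.07 ± 0.18 (95% interval -0.47 to 0.32), and 2 of 6 knockout libraries, 1099 and 1102, lay below all wild-type libraries. Its direction turned to 0.05 without wild-type replicate 4 and to 0.08 without libraries 1091, 1099 and 1102. Tspan18 was at 642 ± 84.6 and 595 ± 176 CPM, with a log2 fold change of -0.11 ± 0.17 (-0.48 to 0.26). In this gene 2 of 6 knockout libraries exceeded every wild-type library and 2 were below every one, and without 1091, 1099 and 1102 the value was 0.06.

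Syt15 had 268 ± 27.1 CPM in the wild-type and 227 ± 49.5 CPM in the knockout libraries, a log2 fold change of -0.23 ± 0.13 (95% interval -0.52 to 0.06). It was lower in the knockout within each of the 3 sets, with log2 differences of -0.27, -0.17 and -0.29. The first 2 of these sets held 1 library per genotype. Nfam1 was at 227 ± 73.8 and 199 ± 69.5 CPM, with -0.18 ± 0.20 (-0.61 to 0.25). Its differences within the sets were likewise below 0, at -0.15, -0.19 and -0.22. The knockout ranges of both genes took in most wild-type libraries.

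Calb2 had 169 ± 50.7 CPM in the wild-type and 139 ± 53.4 CPM in the knockout libraries. Its log2 fold change was -0.30 ± 0.19 (-0.71 to 0.11), the lowest lower limit of the 7. The sets went in opposite directions. The knockout was higher by 0.24 and 0.18 on the log2 scale in the 2 earlier sets, and the difference was -0.55 in the later one. In the later set the wild-type libraries stood at 144, 116, 205 and 229 CPM and the knockout libraries at 129, 95.3, 130 and 105 CPM. The interaction of genotype with earlier or later library was -0.76 ± 0.36 (edgeR unadjusted p = 0.0571, adjusted p = 1), and 0 of 7 members were called in that test, as were 0 of 14317 genes (0.0%; 325 genes at an unadjusted p under 0.05, and 2 genes, no member, with DESeq2).

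Il18 was the only one of the 7 with a higher mean in knockout, 5.61 ± 2.29 against 5.13 ± 0.590 CPM. The mean rested on library 683, at 10.1 CPM, while the other 5 knockout libraries lay between 3.87 and 5.66 CPM. The log2 fold change was 0.08 ± 0.22 (95% interval -0.40 to 0.56), and without knockout replicate 1, which is library 683, it was -0.15. Of the 7 estimates 6 were below 0, against 49.6% of all genes tested. The lean was shared by the habenula identity genes (13 of 15 below 0, median -0.17), while markers of other cells leaned the other way. Above 0 were 12 of 12 astrocyte, 12 of 12 oligodendrocyte, 6 of 6 oligodendrocyte precursor, 7 of 7 ependymal and 6 of 6 GABAergic genes, with medians of 0.70 to 1.09. The remaining lists were mixed, with 11 of 13 microglial (median 0.53), 9 of 11 vascular (0.36) and 7 of 10 lateral habenula or thalamic genes (0.48) above 0. None of these genes was called.

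**Figure D3:**
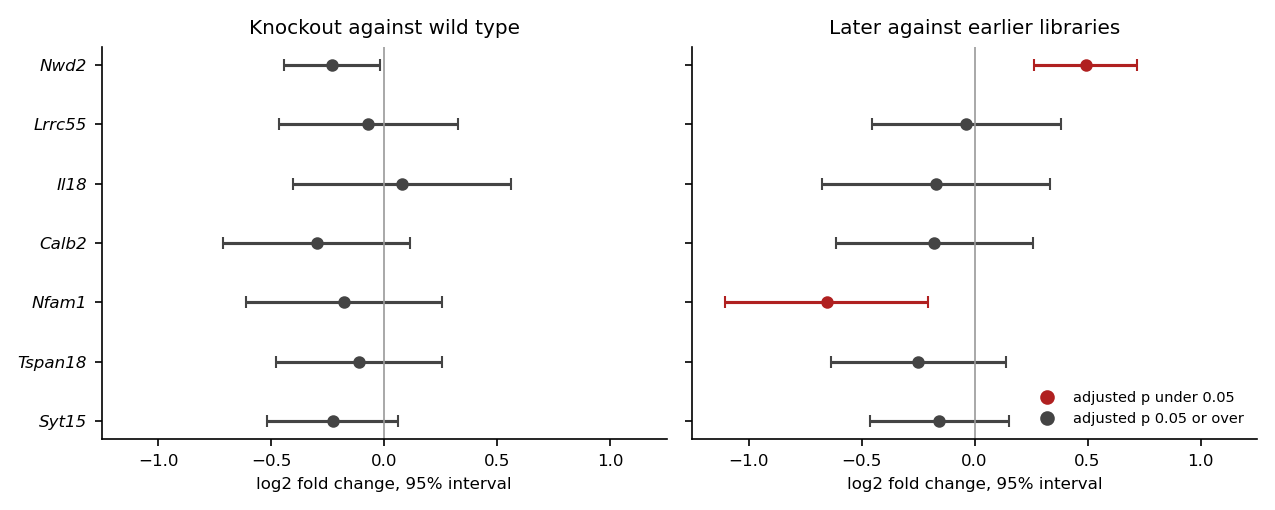
Log2 fold changes with 95% intervals from the edgeR fit, on the left for knockout against wild type and on the right for the 8 later against the 4 earlier IP libraries. Red marks an adjusted p under 0.05. All intervals on the left but that of Nwd2 include 0, and on the right Nwd2 (0.49) and Nfam1 (-0.65) are marked red.

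Later and earlier libraries differed in 2 of the 7 transcripts, Nwd2 and Nfam1, in a contrast where 23.3% of all genes did (13.3% higher and 10.0% lower). Nwd2 was at 1637 and 1656 CPM in libraries 682 and 683, at 2544 and 1986 CPM in 852 and 855, and at 2100 to 2976 CPM in the 8 later ones. It was higher in the later libraries by 0.49 ± 0.11 on the log2 scale (edgeR adjusted p = 0.0119), with only 852 among the earlier ones inside their range. Nfam1 was at 250.4 to 330 CPM in the 4 earlier libraries and at 90.0 to 224 CPM in the 8 later ones, without overlap. Its log2 change was -0.65 ± 0.21 (adjusted p = 0.0409).

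The calls depended on single libraries more than the estimates did. Leaving out 1 library gave log2 changes of 0.39 to 0.55 for Nwd2 and of -0.73 to -0.57 for Nfam1, and DESeq2 gave adjusted p of 6.60e-05 and 0.0236. Without wild-type replicate 1 (library 682), or without knockout replicate 2 (library 855), neither passed, with adjusted p of 0.0756 and 0.106 for Nwd2 and of 0.0905 and 0.133 for Nfam1. Nfam1 also missed the threshold without library 683 (0.135), 852 (0.0930), 1094 (0.0552) or 1102 (0.0647). The other 5 transcripts had log2 changes of -0.25 to -0.04 with adjusted p of 0.304 to 0.897.

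Several of the transcripts varied together from library to library. Lrrc55 was lowest in libraries 1099 (1423 CPM), 1102 (1544 CPM) and 1091 (1839 CPM), and Tspan18 in the same ones (352, 428 and 529 CPM). Syt15 (147, 190.4 and 222 CPM) and Nfam1 (90.0, 163 and 111 CPM) were lowest there as well. The same 3 libraries had the highest levels of non-neuronal markers, a score of 3.30, 3.04 and 2.68 as the mean log2(CPM + 1) of 68 genes of astrocytes, oligodendrocytes and their precursors, microglia, vessels and ependyma. The other 9 IP libraries had scores of 1.47 to 2.28, and the input 3.99. The habenula identity score was lowest in the same 3 libraries, at 7.45, 7.57 and 7.78 against 7.94 to 8.43 in the others. Libraries 1099 and 1091 also had the largest share of alignments outside genes, 16.6% and 13.2%, against 9.44% to 10.7% in the other 10, and the part of these differences in the members' levels was not tested.

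A slope on that score was fitted beside set and genotype after these values had been seen. It was negative at an adjusted p under 0.05 for 4 of 7 transcripts, against 12.1% of all genes (18.1% were positive). The members were chosen by their ratio to an input with a higher score than any IP library. The wild-type libraries behind that choice were also in this fit. A negative slope in enriched members was thus favoured in advance, and the count is a description only. Lrrc55 fell by 0.56 ± 0.11 on the log2 scale per unit of the score (SE; edgeR adjusted p = 0.00231), Nfam1 by 0.58 ± 0.16 (0.0172), Tspan18 by 0.54 ± 0.10 (0.00171) and Syt15 by 0.38 ± 0.09 (0.00971). Nwd2, Il18 and Calb2 did not pass, with -0.09, -0.13 and 0.10 (adjusted p = 0.510, 0.687 and 0.748). Without libraries 1091, 1099 and 1102, 0 of 7 passed. The slopes were then -0.79 for Lrrc55 (adjusted p = 0.0561) and -0.56 for Tspan18 (0.107), at least as steep as before, and -0.22 for Syt15 (0.522) and -0.06 for Nfam1 (0.893), which were flatter. Il18 and Calb2 became steeper, at -1.22 and 1.00, and Nwd2 had -0.04 (edgeR adjusted p = 0.150, 0.136 and 0.926). Without library 1099 alone 2 of 7 passed, and without 1091 or without 1100, 3 of 7.

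**Figure D4:**
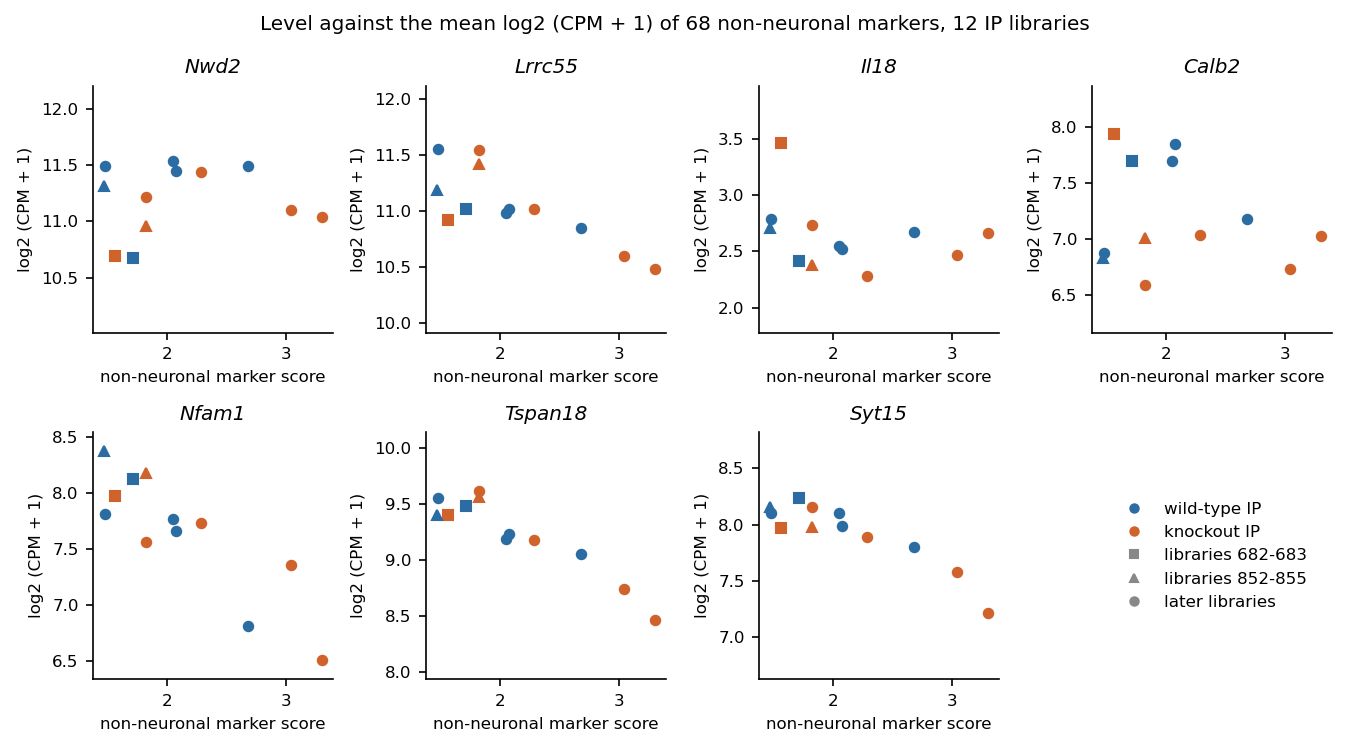
Level of each transcript, as log2(CPM + 1), against the score of 68 non-neuronal marker genes (mean log2(CPM + 1)) in the 12 IP libraries, each panel spanning 2.2 log2 units. Lrrc55, Tspan18, Syt15 and Nfam1 are lowest in the 3 libraries with the highest score, and Nwd2, Il18 and Calb2 show no such order.

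The non-neuronal score was 1.91 ± 0.460 in wild-type IP and 2.304 ± 0.715 in knockout IP (mean and SD of 6 libraries; two-sided exact permutation p = 0.279, adjusted p = 0.417). That test ignored the library set, and the knockout minus wild-type difference was -0.15 for 683 and 682, 0.35 for 855 and 852 and 0.54 in the later set. The habenula identity score, from 15 genes without the members, was 8.13 ± 0.230 and 7.98 ± 0.397 (exact permutation p = 0.437, adjusted p = 0.486), and 5.52 in the input. With the non-neuronal score added to the genotype model, the estimate became 0.14 for Lrrc55, 0.07 for Tspan18, 0.05 for Nfam1 and -0.09 for Syt15. It was -0.20 for Nwd2, -0.34 for Calb2 and 0.14 for Il18. The sign thus turned for Lrrc55, Tspan18 and Nfam1, and Syt15, Nwd2, Calb2 and Il18 kept theirs. The wild-type libraries behind the choice of the members were also in this fit, so the values are a description only. With the habenula identity score in place of the non-neuronal score, the values were 0.09 for Lrrc55, 0.03 for Tspan18, -0.03 for Nfam1 and -0.13 for Syt15. For Nwd2, Calb2 and Il18 they were -0.22, -0.34 and 0.08, and no member was called in either fit.

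Likeness of profile was measured as the root mean square difference of log2 CPM over all 13 libraries, each gene centred on its own mean, among 10396 genes. Tspan18 was most like Chrna3, the nicotinic receptor alpha 3 subunit (0.0935), and the serotonin receptor gene Htr5b (0.116). Lrrc55 was most like Chrnb3, the nicotinic beta 3 subunit (0.128), and Gfra1, a GDNF family receptor (0.157). Syt15 was most like Tspan18 itself (0.135) and Gfra1 (0.138). These values describe 12 IP libraries and 1 input, and the step from input to IP is shared by every enriched gene.

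Among the genes nearest to Nwd2 was Prkcb, a protein kinase C (0.109). The genes named for the other 3 were farther away: Ccdc155 (0.202) and Rab4b (0.209) for Nfam1, Vps54 (0.176) and Jam2 (0.187) for Il18, and Marcksl1 (0.237) for Calb2. Among the members, over the 12 IP libraries alone, Tspan18 and Syt15 differed by 0.136 and Lrrc55 and Tspan18 by 0.152, while the other pairs differed by 0.215 to 0.706. The log2 ratio of Tspan18 to Syt15 counts was 1.26 ± 0.12 in wild type, 1.37 ± 0.15 in knockout (SD over 6 libraries) and 1.50 in the input, which lay within the range of the 12 IP libraries (1.09 to 1.58).

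Each transcript was set beside the other genes of its family or pathway. For Lrrc55, the pore-forming BK subunit Kcnma1 was also enriched, at 2056 ± 382 CPM in wild-type IP and 379 CPM in the input (median log2 ratio 2.37, 2.05 to 2.82). It was the only one of the 3 BK genes with at least 5 CPM to meet the 2-fold rule. The beta subunit Kcnmb4 had a median ratio of 1.27 and Kcnmb2 -0.56. The other gamma subunits were nearly undetected, with 0.17 CPM for Lrrc26, 0.21 for Lrrc38 and 0.01 for Lrrc52 in wild-type IP, the last under the level of 3 counts. Lrrc55 was thus the only gamma subunit found above 1 CPM.

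Calb2 belongs to a group whose members went both ways. Of 21 calcium buffers and sensors with at least 5 CPM, 4 were called higher and 10 lower in wild-type IP. The higher ones were Necab3 (median log2 ratio 3.49), the potassium channel interacting protein Kcnip1 (3.32), Necab2 (3.06) and Cabp1 (2.34). The lower ones included Caln1 (-4.94), parvalbumin (Pvalb, -4.58), Necab1 (-3.93) and calbindin (Calb1, -2.34). Calretinin itself was between these extremes, and calbindin and parvalbumin are the other classical buffers of the list.

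For Syt15, 3 of 22 related C2-domain genes were called higher and 1 lower. They were Sytl1 (3.02, at 9.29 ± 4.61 CPM against 0.204 CPM in the input), Syt9 (2.83, at 1868 ± 356 CPM) and Syt6 (2.68, at 1088 ± 135 CPM), and the fast calcium sensors Syt1 and Syt2 of transmitter release had -0.72 and -1.23. The gene with the lowest median, Rph3a (-2.47), was spread from -3.37 to -0.67. For Tspan18, 2 of 24 tetraspanin and store-operated calcium entry genes were called higher, Tspan13 (2.25) and Tspan31 (1.82), and 6 lower, with Cd9 lowest (-3.81). Its partner Orai1 was at 9.35 ± 1.78 CPM, with a median ratio of 1.07 and a range of 0.62 to 1.29.

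The partners of the immune proteins were mostly sparse or not enriched. Of 14 ITAM and NFAT signalling genes with at least 5 CPM, 0 were called higher and 2 lower than input. The calcineurin regulator Rcan1 was highest at 0.74 and the microglial adaptor Tyrobp lowest at -2.51. The ITAM kinases Syk and Zap70 were at 0.41 and 1.36 CPM in wild-type IP. The 16 microglial markers summed to 14.4 to 41.3 CPM in wild-type IP, 17.8 to 58.2 CPM in knockout IP and 109 CPM in the input. Only 9 of them had at least 5 CPM, and of these 0 were called higher in wild-type IP. Nfam1 was at 227 CPM in wild-type IP and 12.8 CPM in the input, and its cell of origin was not tested.

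For Il18, 1 of 6 pathway genes with at least 5 CPM, the kinase Irak1, was called higher (1.42, at 73.3 ± 11.7 CPM) and 2 lower, with the related cytokine Il33 lowest (-4.50, at 8.62 ± 7.41 CPM against 151 CPM). The receptor gene Il18r1 had 0 counts in the input and in each wild-type library, which allows up to 0.0680 CPM in the input, and the processing protease Casp1 was at 0.07 CPM in wild-type IP. For Nwd2, 0 of 5 relatives with a NACHT or similar domain were called higher and 2 lower. The telomerase protein gene Tep1 was highest at 0.81, and the nearest paralogue by name, Nwd1, was at 13.5 ± 7.05 CPM against 72.0 CPM (-2.61). No relative of any of the 7 was called by genotype.

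**Figure D5:**
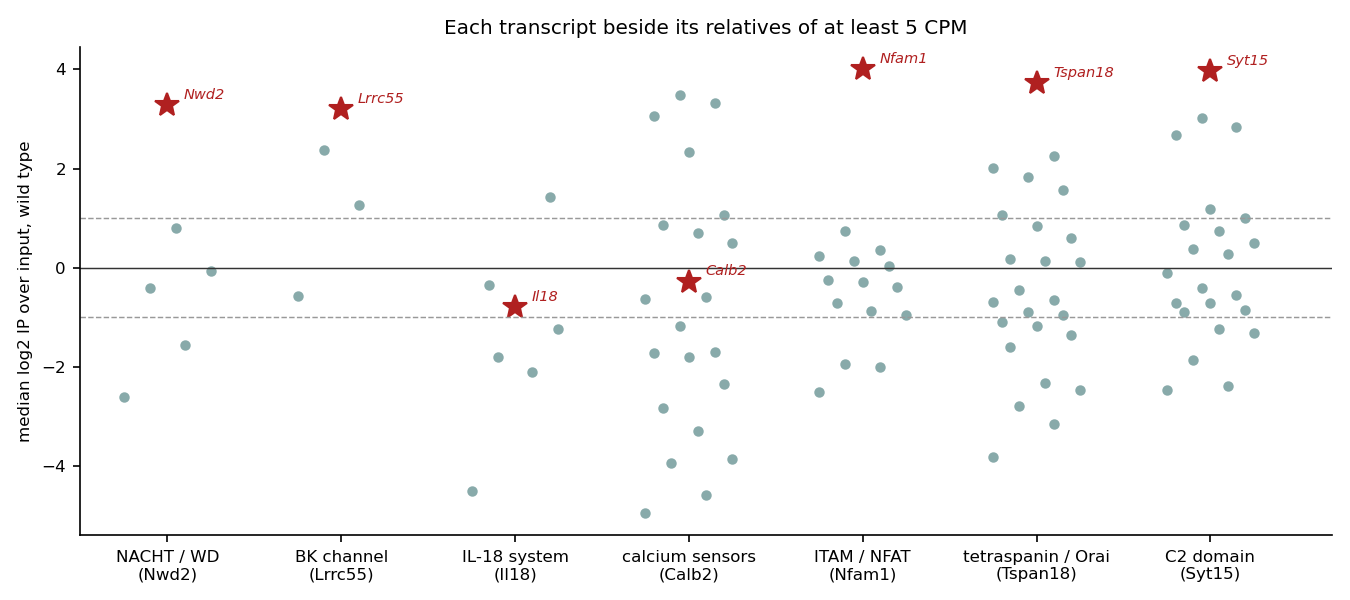
Median log2 ratio of IP to input in wild type for each member (red stars) and the genes of its family or pathway with at least 5 CPM (points), dashed lines at 2-fold. Horizontal position within a group has no meaning. Nwd2, Lrrc55, Nfam1, Tspan18 and Syt15 lie above all other genes of their groups, and Il18 and Calb2 lie inside theirs.

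Of the genes next to the members on the chromosome, 1 of those with at least 5 CPM was enriched as well. Trp53i11 ends where Tspan18 ends, on the opposite strand and with no base between them, and it was called higher in wild-type IP (1012 ± 202 CPM against 121 CPM in the input, median log2 ratio 3.12). Tcf20 beside Nfam1 had -0.99, Pts and Sdhd on the sides of Il18 had 0.51 and 0.30, and Cmtr2 beside Calb2 had -0.19. The other neighbours counted were under 5 CPM. Use of strand in counting was not given in the sources used here. Tspan18 and Trp53i11 abut without a shared annotated base, so strand bears there only on reads that run past the end of either gene. Whether reads were told apart by strand is likewise not known at the 1219 exonic bases of Nwd2 opposite Gm9954. The same holds for the 210 and 266 exonic bases of Lrrc55 opposite Gm13713 and Gm13716.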

How the data were processed

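The authors deposited raw read counts by gene symbol, with a separate table for each library. STAR 2.3.0e, HTSeq, DESeq2 and mm10 are named in the submitters' processing notes (settings and annotation: not given in the sources used here). Per the labels' protocols, RNA was amplified before library preparation. The tables listed 32531 symbols (earlier IP), 24454 (later IP) and 37328 (input). CPM used the 22682 shared symbols, which leave out 19.4% of input gene counts (17.8% are ribosomal RNA). Genotype was fitted on the 23857 symbols of the 12 IP libraries with edgeR 4.0.16 in R 4.3.3: filterByExpr (minimum count 10, minimum total 15), TMM scaling, the robust quasi-likelihood test, two-sided, with Benjamini-Hochberg adjustment over all 14317 genes tested and a threshold of 0.05; earlier and later libraries, the interaction and the marker slope used the same kind of fit. DESeq2 1.42.0 was an alternative. Marker scores were compared by exact permutation over 924 splits, two-sided, adjusted over 10 scores. Replicates differed by more than sampling noise (23.2 to 547 for chi-square over degrees of freedom, later pairs). Fits were tested on simulated data. The members and lists were chosen with earlier results of these data known. Named genes were the members, Gpr151, per list of relatives those with the highest and lowest median ratio, the nearest protein-coding neighbours and the 2 most alike profiles per member, of which some are not reported here; other named relatives were chosen after their values were seen.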

Additional observations from a re-analysis of the deposited data

Results flagged for a closer look

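Among the 14 sets of 6 values (7 transcripts in 2 genotypes), 3 held a library whose gap to its nearest neighbour, as a share of the whole range, passed Dixon's limit of 0.625; chance alone flags about 5% of such sets. Nwd2 had its lowest wild-type value in library 682, 1637 CPM against 2544 CPM in the next (share 0.678). Il18 had its highest knockout value in library 683, 10.1 CPM against 5.66 CPM (share 0.712). Calb2 had its highest knockout value in the same library, 244 CPM against 130 CPM (share 0.765). Libraries 682 and 683 form 1 set, and the part of that set in these values was not tested.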

How the results depend on the processing

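With 23 alternatives for genotype, 0 of 7 transcripts were called in any, and adjusted p ran from 0.716 to 1. No paired analysis was possible because replicate numbers follow the order of accessions alone; the library set was the only block. Nwd2 and Syt15 kept a negative sign in all 23, but Syt15 shrank from -0.23 to -0.0946 with the non-neuronal score as covariate and to -0.12 without libraries 1091, 1099 and 1102. With the 4 earlier libraries alone the signs turned for Lrrc55 (0.0548), Calb2 (0.20) and Tspan18 (0.0295); with the non-neuronal score as covariate for Lrrc55 (0.14), Nfam1 (0.0518) and Tspan18 (0.0745); with the habenula identity score for Lrrc55 (0.0888) and Tspan18 (0.0267); without libraries 1091, 1099 and 1102 for Lrrc55 (0.0796) and Tspan18 (0.0572); with the later libraries alone for Il18 (-0.0886). Leaving out 1 library gave -0.21 to 0.0527 for Lrrc55, -0.15 to 0.17 for Il18, -0.29 to -0.0663 for Nfam1, -0.24 to -0.0205 for Tspan18, -0.42 to -0.18 for Calb2, -0.32 to -0.15 for Syt15 and -0.29 to -0.21 for Nwd2. Of all genes, 2 were called in the genotype test, 12 with DESeq2, 1 with a filter of 1 CPM in 6 libraries and 0 with the later libraries alone. In the contrast of later with earlier libraries, 0 to 2 members were called when 1 library was left out, and 465 to 4476 genes of all. For the marker slope 2 to 4 members were called when 1 library was left out and 0 without libraries 1091, 1099 and 1102 (884 genes of all, against 4320); the latter alternatives were chosen after seeing the data. The cause of these shifts was not tested. In wild type and knockout, 5 of 7 members met the 2-fold rule under all 13 alternatives, among them a 4-fold limit (183 and 110 genes higher). Leaving out Rn45s gave no separate ratio, since it is not among the shared symbols. With 1 input library, the ratios to input carry no error for the input beyond counting.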
